A study of Mus musculus with 10 samples.

Results

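The collagen genes of murine pancreatic tumors were taken as the protein-coding genes named Col, a number, the letter a and a number. Of 44 such genes in the table of 55359 genes, 41 had a mean of at least 1 normalized count over the 10 tumors and were described. They comprised 11 fibrillar chains, 6 chains of basement membrane collagen IV, 6 chains of the beaded filament collagen VI, 6 fibril-associated (FACIT) chains, 3 network-forming chains, 1 anchoring fibril chain, 4 transmembrane chains, 2 multiplexins and 2 others. Of the 3 genes left out, Col19a1 and Col9a1 had no read and Col22a1 had a mean of 0.519 normalized counts. Col9a2 was the lowest member, with a mean of 1.55.

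Tumors were grown in the pancreas of C57BL/6 mice (C57BL/6 J in the methods), injected at 10 weeks of age, from the KPC K8484 line of mouse pancreatic cancer. For orthotopic experiments the methods state male and female mice in equal numbers. The 5 CTRL tumors came from normoglycemic mice on regular water. The 5 D30 tumors came from mice given water with 30% dextrose for 14 days to raise blood glucose. By the methods all 10 tumors carry the same line, so the comparison bears on 1 line, and each tumor mixes cancer cells with host stroma. The sample titles call all 10 tumors PDX, a term for patient-derived xenografts, which differs from the mouse line of the methods. Whether all tumors share 1 line was not tested. Tumors are named here by the columns of the deposited table, N1, N2, N4, N5 and N6 for CTRL and T1, T2, T4, T5 and T7 for D30. The T columns were taken as D30 because it was the only other group.

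Collagens are trimers of chains whose helical part repeats a triplet that starts with glycine. Fibrillar collagens form the cables of the interstitial matrix, collagen IV forms the sheet beneath epithelium and endothelium, and collagen VI forms fine filaments that link cells to the matrix. In pancreatic cancer much of the interstitial collagen comes from fibroblasts, and the dense matrix is a hallmark of the disease.

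The triplet repeat that defines the family is shown for 3 chains whose values are described in detail, as 72 bases of coding sequence from GENCODE M21 transcripts. Capitals mark the glycine codon that starts each triplet, and glycine codons at other positions are in lower case.
Col3a1: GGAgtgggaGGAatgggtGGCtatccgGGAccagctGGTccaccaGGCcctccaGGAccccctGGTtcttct
Col4a5: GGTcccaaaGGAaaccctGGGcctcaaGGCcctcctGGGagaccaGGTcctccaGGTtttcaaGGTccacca
Col6a1: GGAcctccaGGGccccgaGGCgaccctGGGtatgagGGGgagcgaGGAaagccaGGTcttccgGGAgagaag
The repeat ran unbroken for 344 triplets in Col3a1, a fibrillar chain. In Col4a5, a collagen IV chain, it was split into 23 blocks of which the longest held 42 triplets. In Col6a1, whose helix is short between globular domains, the longest block held 87 triplets. Such transcripts are long and rich in G and C. The longest coding transcripts of the 41 genes had a median length of 6048 bases and a median GC content of 56.1%, against 2973.5 bases and 50.3% over 16540 tested protein-coding genes.

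Recovered reads numbered 29192261 to 42122304 per tumor, and genes with a read 20482 to 25912, with the fewest in T5. T4 and N1 stood apart from the other libraries. Among 322 genes outside the family with a mean of at least 100, a transcript over 5000 bases and a GC content over 55%, the median log2 deviation from the mean of all tumors was -1.73 in T4 and -0.76 in N1. It lay between 0.19 and 0.45 in the other 8 tumors. T4 also held 841 reads of the Y-linked genes Ddx3y, Eif2s3y, Kdm5d and Uty, of which the other 9 tumors had no read. The methods state both sexes in equal numbers, and the sex of each mouse could not be matched to a column. Results are therefore also given without T4 and N1 and after a correction of each tumor for transcript GC and length, both chosen after the data were seen.

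Collagen transcripts were mostly lower in D30 tumors, but a single gene passed the test. In limma on log2(normalized count + 1), 35 of 41 collagen genes had a negative log2 fold change (D30 minus CTRL), against 54.7% of all 24560 genes tested. The median log2 fold change was -0.71 over the collagen genes and -0.06 over all genes tested. Col6a1, a chain of collagen VI, fell at an adjusted p under 0.05. That is 2.44% of the members, beside 2.76% of all genes called in either direction and 1.36% called as lower. An unadjusted p under 0.05 with a lower D30 level was found for 14 of 41 collagen genes, or 34.1%, against 9.54% of all genes. With a higher D30 level it was found for 1 of 41, Col17a1, against 7.79% of all genes. Members share cells, libraries and transcript composition and are not independent, so these shares are descriptions. In bulk tumors, fewer cells of a type and less RNA per cell cannot be told apart.

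**Figure D1:**
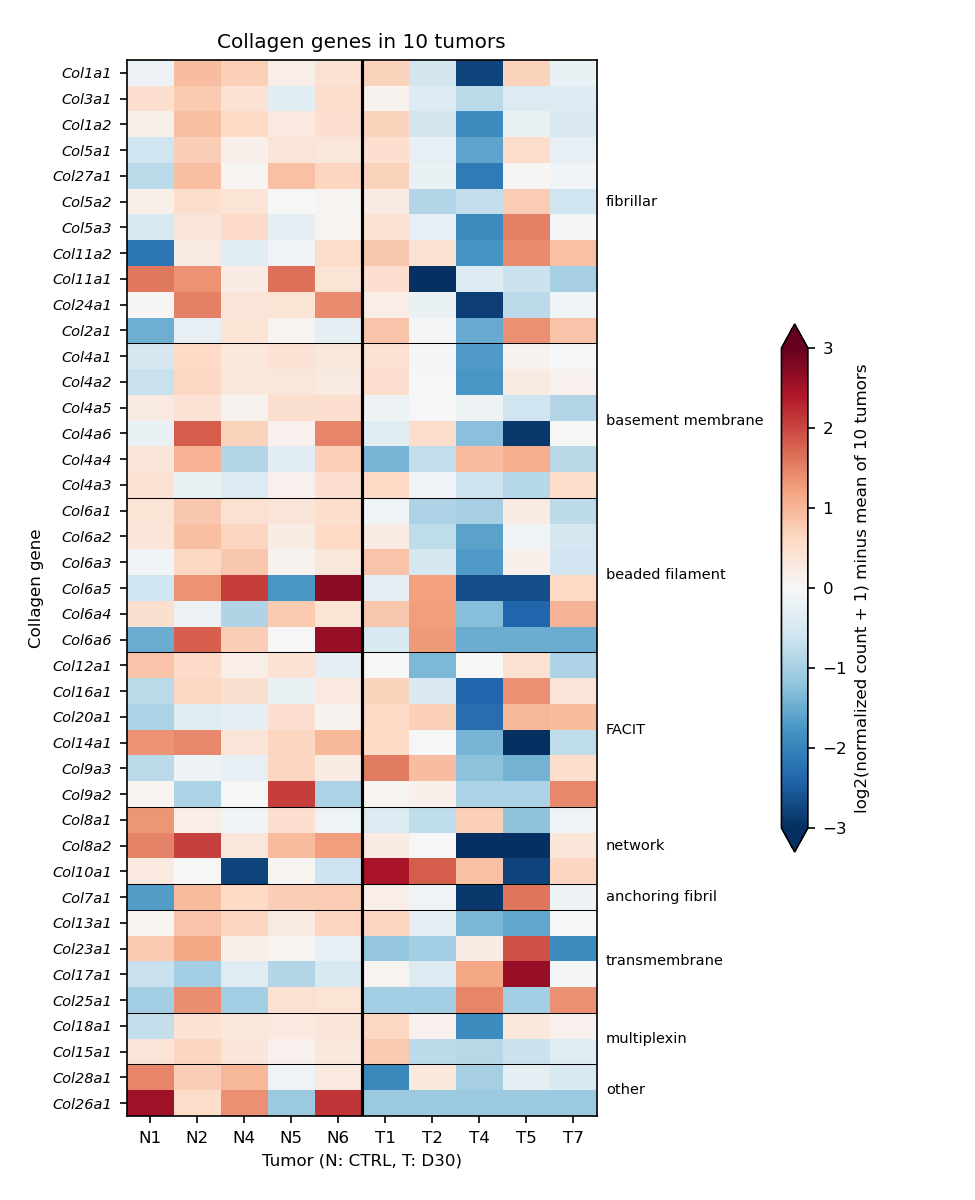
Each row is a collagen gene and each column a tumor, and the color gives log2(normalized count + 1) minus the gene's mean over the 10 tumors, cut at -3 and 3. T4 had the lowest value of the 10 tumors for 19 of the 41 genes, and T1 had the fewest genes below the lowest CTRL value among the D30 tumors, 8.

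The collagen genes took a mean of 0.738% ± 0.157 of all reads in CTRL tumors and 0.459% ± 0.210 in D30 tumors (SD, n = 5). The share was 0.534%, 0.966%, 0.742%, 0.676% and 0.773% in N1, N2, N4, N5 and N6. It was 0.711%, 0.417%, 0.148%, 0.576% and 0.443% in T1, T2, T4, T5 and T7. The groups overlapped through T1 and T5, and T4 lay far below the other tumors. Of the 41 genes, 8 were below the lowest CTRL value in T1, 17 in T2, 30 in T4, 18 in T5 and 17 in T7.

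The direction of the family stood without N1 and T4, while the number of calls changed. Without both tumors, 30 of 41 genes were lower, beside 54.3% of all genes, and the median log2 fold change was -0.61. A lower level at an unadjusted p under 0.05 was found for 14 genes (34.1%), beside 11.9% of all genes. Over 10 tumors that share of all genes was 9.54%. Col6a1, Col6a2 and Col4a5 fell and Col20a1 rose, 4 calls beside 6.49% of all genes. The same 4 genes were called without T4 alone, beside 6.43% of all genes. In that setting 28 of 41 were lower, beside 53.5% of all genes. After the correction for GC and length, 31 of 41 were lower, beside 56.6% of all genes, and the median log2 fold change was -0.40. Col6a1, Col6a2 and Col1a2 were called after that correction, beside 5.0% of all genes. On recovered reads, DESeq2 called 8 of 39 collagen genes, 7 lower and 1 higher, beside 8.66% of all genes. Those lower were Col6a1, Col6a2, Col4a5, Col3a1, Col11a1, Col14a1 and Col26a1, and Col17a1 was higher. The quasi-likelihood test of edgeR called 0 of 34, beside 4.13% of all genes. At an unadjusted p under 0.05 it had 10 of the 34 lower, beside 7.99% of all genes, and 1 higher, beside 12.2%.

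**Figure D2:**
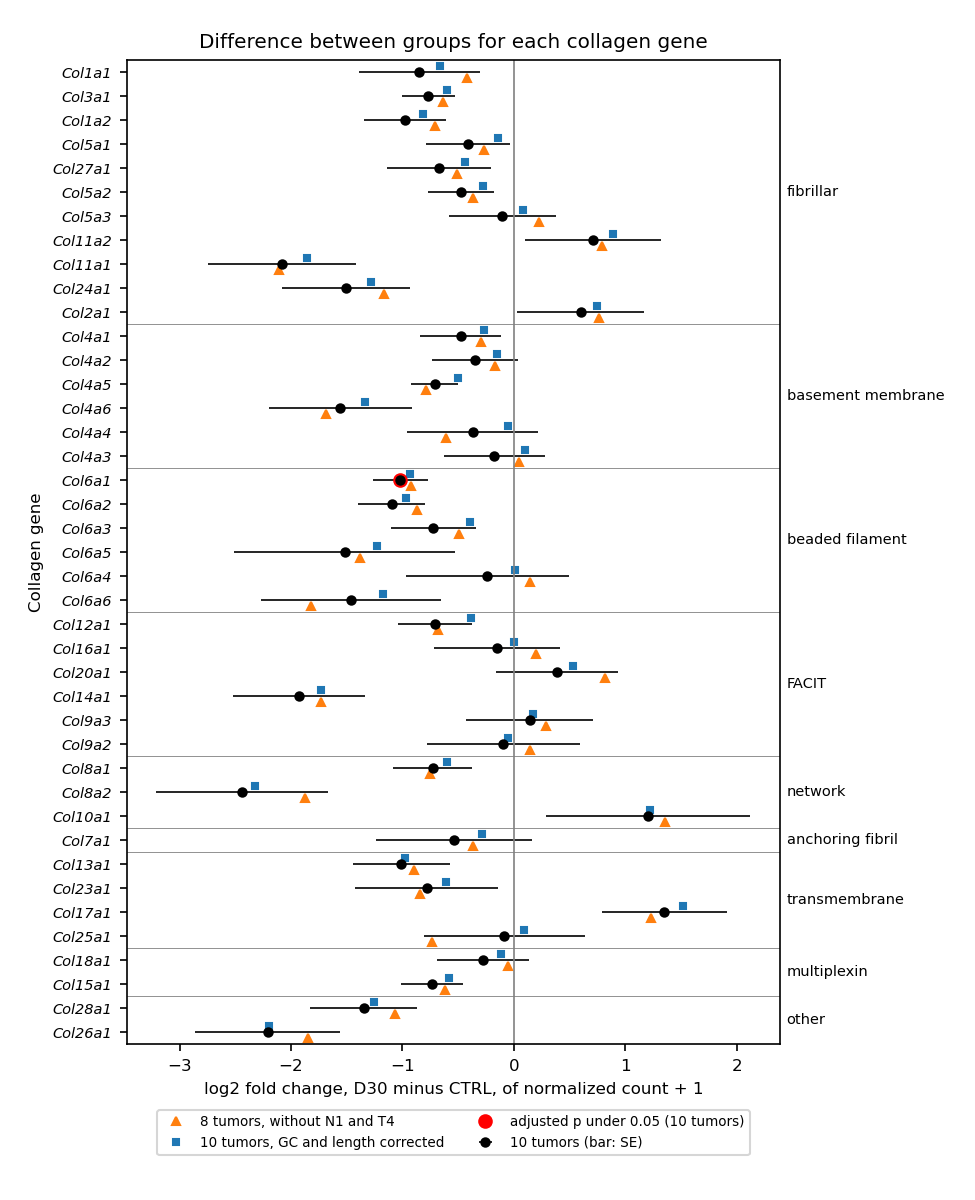
Log2 fold change (D30 minus CTRL) of each collagen gene from limma on log2(normalized count + 1), by class, with the standard error over 10 tumors (black), without N1 and T4 (orange) and after GC and length correction (blue). Col6a1 (red ring) is the gene with an adjusted p under 0.05 over 10 tumors, and 35 of the 41 black points lie below 0.

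Collagen VI chains assemble as a trimer of the products of Col6a1, Col6a2 and a longer chain. Col6a1 (chr10:76708792-76726168, minus strand, GRCm38) had 9752, 12885, 10059, 9580.4 and 10552 normalized counts in N1, N2, N4, N5 and N6. It had 6970.0, 3874, 3719.7, 8688 and 4269 in T1, T2, T4, T5 and T7. Every D30 tumor was below every CTRL tumor, and T5 came closest to the CTRL range. The means were 10566 ± 1348 in CTRL and 5504 ± 2217 in D30 (SD, n = 5), a log2 fold change of -1.02 with a standard error of 0.25 and a limma adjusted p of 0.0451. The groups did not overlap, with D30 lower, for 2 of the 41 collagen genes, Col6a1 and Col4a5, or 4.88%, beside 3.32% of all genes. The fall kept its direction under every setting tried, but leaving out N1, N2, N4, N5, N6, T2 or T7 raised the adjusted p to between 0.0772 and 0.145. With no filter, upper quartile scaling or edgeR it was 0.0615, 0.0547 and 0.0646.

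Col6a2 (chr10:76595762-76623630, minus strand) lies 85161 bases from Col6a1 on the same strand. It had 5731, 8310.2, 6882, 5170.0 and 6679 normalized counts in the CTRL tumors in the same order. It had 5276, 2589, 1448, 4106 and 3126 in the D30 tumors. T1 alone reached into the CTRL range, above N5. Limma gave a log2 fold change of -1.10 with a standard error of 0.30 and a limma adjusted p of 0.0727. Col6a3, which encodes the long chain, had means of 3162 ± 796 and 2199 ± 1367 (SD, n = 5), with a log2 fold change of -0.72 and an adjusted p of 0.359. Without T4 the log2 fold change was -0.39. In T1 it stood at 4316, above all CTRL tumors, and in T4 at 733. The alternative long chains Col6a4, Col6a5 and Col6a6 were scarce, with means of 5.61, 11.1 and 3.71 normalized counts, and all 3 missed the test. Col6a5 and Col6a6 had log2 fold changes of -1.52 and -1.46. Col6a4 had -0.24, with a higher mean in D30 (6.08 against 5.14), and its sign turned in DESeq2 (0.25) and without T4 (0.05).

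The sequences just before the start of the 2 neighboring collagen VI genes and of Col4a5 are shown because these are the genes that were called without N1 and T4 and were lower. They are from RefSeq (GRCm38.p6), 5′ to 3′ on the gene's strand, limited to bases before the gene's start in GENCODE M21. Capitals mark CCAAT and GGGCGG on either strand, and TATAAA was also searched. The RefSeq entry of Col4a5 runs on to base 141475418 and holds 1 GGGCGG match that is not whole within the bases shown.
Col6a1 (chr10:76726169-76726294, minus strand): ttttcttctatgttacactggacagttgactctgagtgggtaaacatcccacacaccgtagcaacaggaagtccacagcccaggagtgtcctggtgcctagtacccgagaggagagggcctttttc
Col6a2 (chr10:76623631-76623880, minus strand): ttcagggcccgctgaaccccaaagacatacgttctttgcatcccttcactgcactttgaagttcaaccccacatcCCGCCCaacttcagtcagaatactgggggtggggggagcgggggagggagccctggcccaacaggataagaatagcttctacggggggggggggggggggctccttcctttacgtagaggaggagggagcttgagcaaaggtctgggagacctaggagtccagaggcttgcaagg
Col4a5 (chrX:141475169-141475384, plus strand): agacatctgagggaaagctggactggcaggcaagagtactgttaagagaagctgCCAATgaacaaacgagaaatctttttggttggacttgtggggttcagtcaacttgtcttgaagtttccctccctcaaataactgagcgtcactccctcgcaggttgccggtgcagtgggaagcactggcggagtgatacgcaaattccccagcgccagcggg
Over 250 bases before the start, GGGCGG was found for 21 of the 33 collagen genes with an entry and in 32.7% of all 32851 promoters. CCAAT was found for 12 of the 33 and in 33.9% of all, and TATAAA for 5 of the 33 and in 12.4% of all. Genes with several entries were counted once if any entry held the letters. These matches are descriptions of the letters alone.

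Type I and type III collagen were among the most abundant members. Per kilobase of the longest coding transcript, Col1a1 averaged 5451 normalized counts, Col3a1 5079.7 and Col1a2 3552, with Col18a1 between the latter pair at 3723. Col1a1 and Col1a2 encode the chains of type I collagen and Col3a1 the chain of type III. Of the 11 fibrillar genes, 9 were lower in D30, none was called, and 4 were lower at an unadjusted p under 0.05, with a median log2 fold change of -0.67 that was -0.26 without T4.

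Col3a1 (chr1:45311538-45349706, plus strand) had the smallest p of the class. It had 37378, 45736, 35864, 21111 and 38689.8 normalized counts in N1, N2, N4, N5 and N6. It had 28386, 19836, 15267, 20001 and 20365 in T1, T2, T4, T5 and T7. The groups overlapped because N5 was below T1. Limma gave a log2 fold change of -0.77 with a standard error of 0.24 and a limma adjusted p of 0.117.

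Col1a2 (chr6:4504814-4541544, plus strand) had 18846, 31716, 25354, 20504 and 23823 normalized counts in the CTRL tumors. It had 26696, 11471, 4534, 14572 and 12434 in the D30 tumors. All D30 tumors but T1 were below all CTRL tumors. Its log2 fold change was -0.98 with a standard error of 0.37 and an adjusted p of 0.193. Without T4 it was -0.62, and after the correction for GC and length it was -0.82 with an adjusted p of 0.044.

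Col1a1 (chr11:94936224-94953042, plus strand) had the largest SD of these 3 genes in D30 tumors, 17201. It had 23918, 51913, 44491, 31327 and 37418 normalized counts in the CTRL tumors. It had 43808, 18655, 3979.9, 44045 and 23683 in the D30 tumors. T1 and T5 lay within the CTRL range while T4 was far below every other tumor. The log2 fold change was -0.85 with a standard error of 0.54 and an adjusted p of 0.455, and it was -0.26 without T4 and -0.42 without N1 and T4.

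Among the other fibrillar chains, Col5a1, Col5a2 and Col5a3, which join type I fibrils and limit their width, had log2 fold changes of -0.41, -0.48 and -0.10. Without T4, Col5a1 was at -0.06 and Col5a3 at 0.36. The mean of Col5a3 was higher in D30, 1855 against 1589 normalized counts, and its log2 fold change was positive in DESeq2 (0.22) and edgeR (0.24) and after GC and length correction (0.08). Col27a1 had -0.67, and -0.23 without T4. Col11a1, a marker often raised in desmoplastic stroma, had 48.4 to 133 normalized counts in CTRL and 2.29 to 59.6 in D30 tumors, with a log2 fold change of -2.08 and an adjusted p of 0.124. Col24a1 had -1.51 and an adjusted p of 0.193. Col11a2 and the cartilage collagen Col2a1 had positive values, 0.71 and 0.60, and none of these genes passed the limma test.

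**Figure D3:**
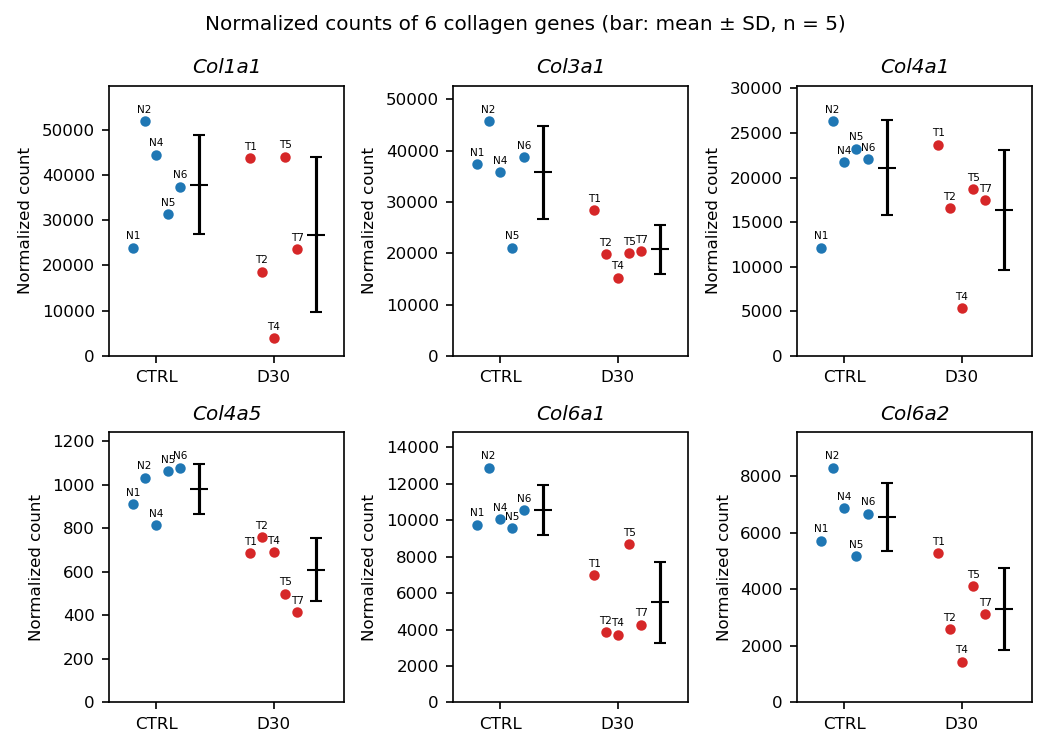
Normalized counts of 6 collagen genes in each tumor, with the mean and SD of each group (n = 5) at the right of the points. The groups do not overlap for Col6a1 and Col4a5, while Col1a1 and Col4a1 overlap and T4 is the lowest tumor for both.

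All 6 basement membrane genes had negative log2 fold changes and none was called, with a median of -0.42. Col4a1 and Col4a2, whose products form the common trimer, lie head to head and overlap by 22 bases on opposite strands. Whether reads were counted by strand is not given in the sources used here. Col4a1 (chr8:11198423-11312826, minus strand) had 12156, 26329, 21709, 23253 and 22044 normalized counts in N1, N2, N4, N5 and N6. It had 23688, 16570.3, 5325, 18699.9 and 17501 in T1, T2, T4, T5 and T7. N1 and T4 were the lowest tumors of their groups. The log2 fold change was -0.48 with a standard error of 0.36 and an adjusted p of 0.542, and it was -0.11 without T4.

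Col4a2 (chr8:11312805-11449287, plus strand) followed the same order of tumors at its low end. It had 6011, 14663, 11911, 11975 and 11459 normalized counts in the CTRL tumors. It had 13562, 9538, 2861, 11242 and 10372 in the D30 tumors. T4 was again the lowest of all. Limma gave -0.35 on the log2 scale (adjusted p of 0.694), which moved to 0.043 without T4.

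Col4a5 (chrX:141475385-141689234, plus strand), a chain of the trimer found in kidney, lung and other specialized membranes, was lower in every D30 tumor. It had 911, 1033, 815, 1063 and 1079 normalized counts in the CTRL tumors. It had 685, 759, 690.5, 500.2 and 415 in the D30 tumors. The low value of T4 seen for Col4a1 was not seen here. The log2 fold change was -0.71 with a standard error of 0.21 and a limma adjusted p of 0.0955, and -0.79 with an adjusted p of 0.044 without N1 and T4. After the correction for GC and length it was -0.50 with an adjusted p of 0.330. Col4a6, which starts 1308 bases away on the opposite strand, had 20.0 to 83.9 normalized counts in CTRL and 2.29 to 34.4 in D30 tumors (adjusted p of 0.234). Col4a3 and Col4a4 had means of 12.0 and 21.4 and log2 fold changes of -0.18 and -0.37.

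Of the 6 FACIT genes, whose products coat fibrils, 4 were lower and none was called, with a median log2 fold change of -0.12. Without T4, 2 were lower and the median was 0.28, and without N1 and T4 it was 0.17. Col16a1 went from -0.15 to 0.42 without T4. Col9a3 had means of 50.6 in CTRL and 71.6 in D30, with a log2 fold change of 0.14 and a limma adjusted p of 0.929. Col14a1 (chr15:55307750-55520803, plus strand) had 277, 299, 143, 172 and 219 normalized counts in the CTRL tumors. It had 166, 110.0, 40.5, 10.3 and 63.9 in the D30 tumors. T1 was the one D30 tumor within the CTRL range. Limma gave a log2 fold change of -1.93 with a standard error of 0.59 and an adjusted p of 0.110. Col12a1 (chr9:79598991-79718831, minus strand), the FACIT gene with the highest level per kilobase, had 6572, 5439, 4171, 4903 and 3014 normalized counts in the CTRL tumors. It had 3692, 1429.5, 3698, 5010.4 and 1914 in the D30 tumors. The groups overlapped, and the adjusted p was 0.293.

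Col20a1, the member called as higher without T4, had 352, 531, 566, 971 and 728 normalized counts in the CTRL tumors. It had 1026, 1110.0, 139, 1352 and 1323 in the D30 tumors. All D30 tumors but T4 were above all CTRL tumors, and it is named for that call, after its values were seen. Over 10 tumors its log2 fold change was 0.38 with an adjusted p of 0.770, and without T4 the adjusted p was 0.031. The annotated transcript BX649560.1 with a mean of 307 normalized counts overlaps it on the same strand. Col9a2 had 1, 0, 1, 8 and 0 reads in the CTRL tumors and 1, 1, 0, 0 and 4 in the D30 tumors, with a log2 fold change of -0.09 and an adjusted p of 0.963.

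Network-forming collagen VIII lines vessels and other surfaces. Col8a1 (chr16:57624258-57754737, minus strand) had 5685, 2578, 2137, 3214 and 2072 normalized counts in the CTRL tumors. It had 1698, 1328, 3699, 971 and 2059 in the D30 tumors. T4 was the highest D30 tumor here, in contrast to most members, and the adjusted p was 0.316. Col8a2 (chr4:126286793-126314330, plus strand) had 143, 211, 64.0, 97.4 and 121 normalized counts in the CTRL tumors. It had 59.6, 50.4, 4.63, 3.43 and 65.0 in the D30 tumors, of which T7 was just above N4. Its log2 fold change was -2.44 with a standard error of 0.77 and an adjusted p of 0.120. Col10a1, a cartilage collagen, had 0 to 36 normalized counts.

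Col7a1 (chr9:108953586-108984875, plus strand) encodes the anchoring fibril that ties epithelium to stroma. It had 2634, 16127, 12663, 13935 and 14168 normalized counts in the CTRL tumors. It had 9631, 7849.9, 1133, 25461 and 7627 in the D30 tumors. N1 and T4 were lowest and T5 highest. Limma gave a log2 fold change of -0.53 with a standard error of 0.70 and an adjusted p of 0.746, and it was 0.12 without T4.

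The multiplexins are basement membrane proteins whose ends are cut into vessel-regulating fragments. Col18a1 (chr10:77052178-77166548, minus strand) had 11548, 25735, 23705, 23467 and 24314 normalized counts in the CTRL tumors. It had 29342, 20768, 5142, 23528 and 20759 in the D30 tumors. The groups overlapped, with N1 and T4 far below the others, and the adjusted p was 0.782. It overlaps Slc19a1, with a mean of 819.8, on the opposite strand.

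Col15a1 (chr4:47208161-47313167, plus strand) had 5444, 6477, 5319, 4533 and 5189 normalized counts in the CTRL tumors. It had 7119, 2419, 2325, 2660.3 and 3214 in the D30 tumors. T1 was the highest of all 10 tumors while the other D30 tumors were below every CTRL tumor. The log2 fold change was -0.74 with an adjusted p of 0.193, and -1.02 with an adjusted p of 0.016 without T1.

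Transmembrane collagens were at low levels. Col17a1 (chr19:47646344-47692094, minus strand), a hemidesmosome component of epithelium, had 7.23 to 11.9 normalized counts in CTRL tumors and 16.5, 11.5, 35.9, 101 and 14.9 in T1, T2, T4, T5 and T7. Its log2 fold change was 1.35 with a standard error of 0.56 and a limma adjusted p of 0.236. Col13a1 (chr10:61838236-61979108, minus strand) had 55.8 to 96.1 normalized counts in CTRL and 17.2 to 82.3 in D30 tumors, with a log2 fold change of -1.01 and an adjusted p of 0.257. Col23a1 had 22.2 to 60.7 in CTRL and 6.39 to 102 in D30 tumors, with a log2 fold change of -0.78 and a limma adjusted p of 0.575. Over all settings its adjusted p ranged from 0.0185 to 0.912. Col25a1 had a mean of 1.67 and a log2 fold change of -0.09.

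The remaining members were Col28a1 and Col26a1. Col28a1 (chr6:7997808-8192617, minus strand), a chain known from peripheral nerve, had 24.8 to 74.7 normalized counts in CTRL and 6.17 to 33.2 in D30 tumors (adjusted p of 0.168). Col26a1 (chr5:136741759-136883209, minus strand) had 11.6, 2.17, 4.57, 0 and 8.56 normalized counts in the CTRL tumors, or 29 reads in all, and no read in any D30 tumor. Set against 3 reads over the D30 group, the CTRL mean was at least 8.08-fold higher. That limit covers counting error in D30 alone and leaves out the spread of the CTRL tumors. N1 held 11 of the 29 reads, and N5 had no read either. Col26a1 was not called by limma (log2 fold change of -2.21, standard error of 0.65, adjusted p of 0.0963).

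Chains that share a trimer or fibril were compared as ratios within each tumor by two-sided exact permutation tests over 8 pairs, where the smallest p for 5 against 5 tumors is 0.00794. The ratio of Col4a1 to Col4a2 was 1.80 to 2.02 in CTRL and 1.66 to 1.86 in D30 tumors. Its log2 difference was -0.13, with an exact p of 0.024 and an adjusted p of 0.190. The ratio of Col1a1 to Col1a2 was 1.27 to 1.75 in CTRL, against 0.878 in T4 and 3.02 in T5. Col6a1 to Col6a2 was 1.46 to 1.85 in CTRL, against 2.57 in T4 and 2.12 in T5. None of the 8 ratios passed the test, and the adjusted exact p values lay between 0.190 and 0.889.

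The proteins that make, process and bind collagen were mixed in direction. Of 52 tested genes in 6 lists, 35 were lower in D30 and limma called 0, beside 2.76% of all genes. DESeq2 called 4, or 7.69%, beside 8.66% of all genes. Of 15 genes for prolyl and lysyl modification, 8 were higher and 6 had an unadjusted p under 0.05. P4ha1, a catalytic subunit of prolyl 4-hydroxylase, had 2895, 2675, 3509, 2239.7 and 2219 normalized counts in the CTRL tumors. It had 4991, 4656, 3429, 9941 and 5513 in the D30 tumors. T4 was the one D30 tumor within the CTRL range, and the log2 fold change was 1.0 with a standard error of 0.26 and a limma adjusted p of 0.0589.

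Among 5 crosslinking enzymes, Loxl1 had 2175, 2557, 2125, 1679 and 1926 normalized counts in the CTRL tumors. It had 1396, 1105, 433, 1070.3 and 1401 in the D30 tumors. Every D30 tumor was below every CTRL tumor, with a log2 fold change of -1.05 (SE 0.29) and a limma adjusted p of 0.0796. The other 4 had positive values. P4ha1 and Loxl1 were both called without N1 and T4, and both after the correction for GC and length.

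All 8 tested fibril-associated proteins were lower and 4 of them had an unadjusted p under 0.05, with a median log2 fold change of -0.82. Lum, a small proteoglycan of fibrils, had the smallest p of that list, with means of 846 ± 411 and 341 ± 173 (SD, n = 5) and an adjusted p of 0.102. All 7 tested genes of propeptide removal were lower, led by Pcolce2 with an adjusted p of 0.214. Of 7 genes of folding and secretion 5 were lower. The collagen chaperone Serpinh1 had means of 6351 ± 1124 and 5313 ± 832 (SD, n = 5) and an adjusted p of 0.521. Of 10 collagen receptors 7 were lower, and Itga1, the α chain of a collagen-binding integrin, had an adjusted p of 0.249.

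Markers of the cell types that a tumor can hold were read from the same fit. Over all genes of that fit, 54.7% were lower and 2.76% were called. Calls over all genes were 6.49% without N1 and T4 and 8.66% in DESeq2. Summed over 10 fibroblast markers, which did not include collagens, normalized counts ranged from 53192 to 101885 in CTRL and from 19061 to 52510.0 in D30 tumors. Of the 10, 8 were lower and limma called none, and most of the sum was Fn1, with a log2 fold change of -1.44 (adjusted p of 0.0814). DESeq2 called Fn1 (adjusted p of 0.018), and limma without N1 and T4 called Fn1, Fap and Pdgfrb (adjusted p of 0.0079, 0.033 and 0.042). The endothelial sum ranged from 14744 to 23294 in CTRL and from 8228 to 13679 in D30, with 8 of 10 markers lower and Cdh5 called (-1.45, adjusted p of 0.0117). Pericyte sums ranged from 4215 to 6813 and from 3016 to 6541, and 4 of 7 markers were lower. Epithelial sums ranged from 209938 to 335589 in CTRL and from 341417 to 475748 in D30, with 6 of 8 markers higher. Sums follow the most abundant markers. With equal weight, as mean log2(normalized count + 1) per tumor minus the mean of all tumors, the groups overlapped for the fibroblast, endothelial and epithelial lists. Fibroblast scores were -0.06 to 0.60 in CTRL and -0.76 to 0.04 in D30. Endothelial scores were 0.21 to 0.44 and -1.21 to 0.39, and epithelial scores -0.63 to 0.40 and -0.55 to 0.59. All 8 epithelial markers had an unadjusted p under 0.05, beside 9.54% of all genes lower and 7.79% higher at that level. The one called by limma over 10 tumors was Cldn7, which fell from a mean of 24.2 to 3.05 normalized counts. DESeq2 called 3 of the 8, beside 8.66% of all genes, and limma without N1 and T4 also called 3, beside 6.49%. The leukocyte sums overlapped, with 5 of 8 markers lower and 3 higher. Of these 8, limma called 1, Csf1r (-1.06, adjusted p of 0.0449). Acinar sums ranged from 274 to 60051 in CTRL and from 144 to 5510.1 in D30. Of 8 acinar markers 7 were lower, 5 at an unadjusted p under 0.05, with a median log2 fold change of -4.65. Limma called none of the 8, and 6 without N1 and T4, beside 6.49% of all genes. The median without N1 and T4 was -7.39. Adipocyte sums ranged from 4231 to 9861 and from 5428 to 6501, and Schwann cell sums from 2317 to 3682 and from 1718 to 5029.8. The part of these cell types in the collagen values was not tested.

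**Figure D4:**
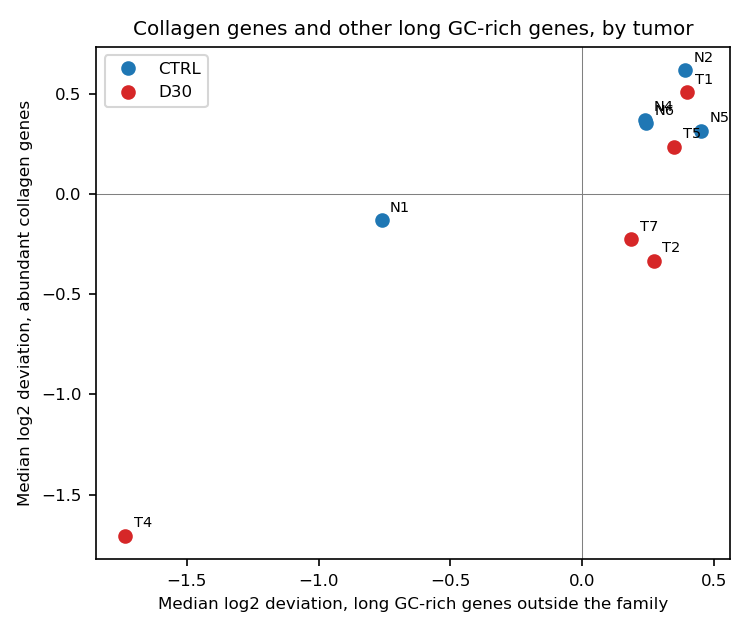
Median log2 deviation from the mean of all tumors of the 22 collagen genes with a mean of at least 100 (vertical) against that of 322 other long GC-rich genes (horizontal), 1 point per tumor. T4 was at -1.71 and -1.73, N1 at -0.13 and -0.76, and the other 8 tumors had positive values on the horizontal axis.

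In T4 the abundant collagen genes deviated together with other long GC-rich genes. In N1 those other genes were at -0.76 and the abundant collagen genes at -0.13. T2 and T7 had low collagen medians, -0.33 and -0.22, with horizontal values of 0.27 and 0.19. The other D30 tumors, T1 and T5, had collagen medians above the mean, 0.51 and 0.24, with horizontal values of 0.40 and 0.35. Genes outside the family with the most similar pattern to Col1a1 over the 10 tumors were Map1a, Dysf, Hic1, Smpd4 and Sema6c, with Pearson r from 0.97 to 0.99. For Col4a1 they were Sh3pxd2b, Map1b, Pofut2, Bicd2 and Itsn1, with r of 0.99. All 10 of these genes were below their mean in both T4 and N1, and the points share library composition, whose part in r was not tested. Within the family, r with Col1a1 was 0.93 for Col1a2, 0.65 for Col3a1, 0.18 for Col4a5 and -0.38 for Col8a1.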

How the data were processed

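RNA from 10 orthotopic tumors (5 CTRL, 5 D30) was sequenced from strand-specific libraries. Per the labels and methods, reads were trimmed with Trim Galore and aligned with STAR 2.7.0e. The labels name GRCm39 and the methods hg38, while the table lists mouse Ensembl identifiers. The deposited signal is a normalized count, the reads of a gene divided by 1 size factor of the tumor by the authors. All values were whole multiples of 1 step (tolerance 0.01), from which reads were recovered, 29192261 to 42122304 per tumor. Such reads are not independent molecules, so limits cover counting error alone.

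Identifiers were named from GENCODE M21 (GRCm38), which matched 94.1%, and positions are from that release. limma 3.58.1 with a trend (R 4.3.3) was run on log2(normalized count + 1) for the 24560 genes with a mean of at least 1, with Benjamini-Hochberg adjustment, and an adjusted p under 0.05 was a call. A fold change on this scale understates changes of low genes. Recovered reads were fitted with edgeR 4.0.16 and DESeq2 1.42.0, and all 3 fits were tested on simulated data. The GC and length correction took off, per tumor, a quadratic surface fitted on other genes with a mean of at least 100. GC and length covered 99.0% of the tested genes.

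The members, classes and lists were chosen with earlier results of these data known. Named genes were every called member, the highest per kilobase and the smallest p of each class, Col1a1, Col1a2, Col3a1, Col4a1 and Col4a2, the lowest member, each list's gene with the smallest p and every called gene, and the 5 genes most like Col1a1 and Col4a1. Col6a2, Col6a3, Col20a1 and the other members were added to account for the classes. Replicates are separate biological replicates per the labels. No column was matched to a single animal.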

Additional observations from a re-analysis of the deposited data

Results flagged for a closer look

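Tumors were set against the other 4 of their group by the gap to the nearest value over the group's range on the log2 scale, for 54 groups of 5 values, of which chance would single out about 1 in 20. In 8 cases the gap passed the limit of 0.71. The 54 groups did not cover all 41 members, so the cases are not a full list. Col20a1 is not among them, though T4 had 139 normalized counts against 1026 to 1352 in the other D30 tumors. N1 stood below the other CTRL tumors for Col18a1 (11548 against 23467 to 25735 normalized counts), Col4a1 (12156 against 21709 to 26329), Col4a2 (6011 against 11459 to 14663) and Col7a1 (2634 against 12663 to 16127). T4 stood below the other D30 tumors for Col18a1 (5142 against 20759 to 29342), Col4a1 (5325 against 16570.3 to 23688) and Col4a2 (2861 against 9538 to 13562). T1 stood above the other D30 tumors for Col15a1, with 7119 against 2325 to 3214.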

How the results depend on the processing

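The count of collagen genes called moved from 1 (2.44%, beside 2.76% of all genes) to 0 with no filter, upper quartile scaling or edgeR (beside 1.82%, 2.87% and 4.13%). It was 3 with library size alone (7.32% beside 3.51%) and with GC and length correction (7.32% beside 5.0%), 8 with DESeq2 (20.5% beside 8.66%), 4 without N1 and T4 (9.76% beside 6.49%) and 7 without T4 and T5 (17.1% beside 9.97%). With correction it was 5 without T4 (12.2% beside 8.69%) and 4 without N1 and T4 (9.76% beside 6.96%). Leaving out 1 tumor at a time gave 0 to 4 calls, beside 1.14% to 6.43% of all genes. It was 0 without N1, N2, N4, N6, T2 or T7, 3 without T1 and 4 without T4, and without N5 the 1 call was Col26a1. The count of 52 pathway genes called moved from 0 to 1 with upper quartile scaling and with edgeR (1.92%), 4 with DESeq2 (7.69%), 3 without T4 and T5 (5.77%), 2 without N1 and T4 and 2 with correction (3.85%), and 4 with correction without T4 or without N1 and T4 (7.69%), beside the shares of all genes above. Leaving out 1 tumor at a time, it was 0 but for 2 without T4. The median log2 fold change of the collagen genes was negative under all 24 alternatives, from -0.93 to -0.40. The sign changed under an alternative for 10 of the 41 members, given with the range on leaving out 1 tumor. These were Col18a1 (-0.49 to 0.16, 0.15 without T4 and T5), Col4a2 (-0.56 to 0.043, 0.036 without T4 and T5), Col7a1 (-1.02 to 0.12), Col9a2 (-0.47 to 0.13, 0.51 without T4 and T5, 0.14 without N1 and T4, 0.013 with correction and without N1 and T4), Col16a1 (-0.51 to 0.42, 0.21 with edgeR, 0.20 with DESeq2, 0.13 without T4 and T5, 0.20 without N1 and T4, 0.11 with correction without T4 or without both), Col25a1 (-0.47 to 0.25, 0.014 with pseudocount 5, 0.16 with DESeq2, 0.094 with correction), Col4a3 (-0.35 to 0.017, 0.26 without T4 and T5, 0.048 without N1 and T4, 0.095 with correction, 0.18 with correction and without both), Col5a3 (-0.49 to 0.36, 0.24 with edgeR, 0.22 with DESeq2, 0.23 without N1 and T4, 0.078 with correction, 0.029 with correction and without T4, 0.15 with correction and without both), Col6a4 (-0.58 to 0.33, 0.0087 with pseudocount 5, 0.25 with DESeq2, 0.91 without T4 and T5, 0.14 without N1 and T4, 0.0055 with correction, 0.21 with correction and without both) and Col9a3 (-0.23 to 0.51, -0.074 with library size alone). Log2 differences of ratios that changed sign on leaving out 1 tumor were Col1a1/Col3a1 (-0.37 to 0.40, 0.22 without N1 and T4), Col6a1/Col6a2 (-0.071 to 0.17, -0.054 without N1 and T4), Col1a1/Col1a2 (-0.086 to 0.36) and Col5a1/Col5a2 (-0.12 to 0.29). The causes were not tested. Settings without 2 tumors and the correction were chosen after seeing the data. No paired analysis was possible because the numbers in the column names are not those of the labelled replicates. With 5 tumors per group, Col6a1 passed the threshold in part of the settings, and members at a few reads per tumor rest on little data.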
